A study of Mus musculus with 2 samples.

Results

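The genes described here take up vitamin B12 (cobalamin), folate and thiamine: Gif, Cubn, Amn, Lrp2, Tcn2 and Cd320 for vitamin B12, Slc46a1 and Slc19a1 for folate, and Slc19a2 and Slc19a3 for thiamine. They were chosen by name, from knowledge of the pathways and with earlier results of these data known. They were matched to the gene tables by Ensembl identifier through GENCODE M21. All 10 were found among 43346 Ensembl genes. Their RNA was measured in poly(A)-selected libraries from the small intestine of C57BL/6J mice aged 8 weeks, an inbred strain, with no treatment named. The labels give 1 group of 2 biological replicates, which are separate tissue samples pooled from male and female littermates and entered under the same donor. They give neither the number of animals per pool nor the part of the intestine that was taken. The comparison that this design allows is between the replicates, so each gene is given by its level in each library and by the mean ± SD (n = 2), and no test was made. In tissue RNA, fewer cells of a type and less RNA per cell cannot be told apart.

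These vitamins cannot be made by the mouse and cross the gut wall on dedicated proteins. Dietary cobalamin is bound by intrinsic factor, the product of Gif (also named Cblif), and the complex is taken into ileal enterocytes by cubam, a receptor made of cubilin (Cubn) and the membrane anchor amnionless (Amn). Megalin (Lrp2) is a large endocytic receptor that works with cubilin in kidney proximal tubule and yolk sac. Transcobalamin (Tcn2) carries cobalamin in blood to its cellular receptor CD320. Folate enters enterocytes of the upper small intestine mainly through the proton-coupled folate transporter (Slc46a1), while the reduced folate carrier (Slc19a1) is made in many tissues. The thiamine transporters THTR1 and THTR2 are encoded by Slc19a2 and Slc19a3.

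The libraries were of like depth, with 45472946 expected counts (estimated fragments, which need not be whole) in replicate 1 and 45822403 in replicate 2, but of unlike make-up. Levels below are the authors' TPM, a transcript abundance scaled for length and library total. The 16 genes of an exocrine pancreas list took 27.4% of TPM in replicate 1 and 0.18% in replicate 2, and 9 stomach genes took 1.97% and 0.00514%. All 12 genes of a small intestine epithelium list, Vil1, Cdx1, Cdx2, Fabp2, Epcam, Sis, Lct, Alpi, Cdhr2, Cdhr5, Anpep and Krt20, were at 1 TPM or more in both libraries, which is the threshold for detection used here. Their summed level was 6007 and 10017 TPM, and 8 of the 12 were over 2-fold higher in replicate 2. Alpi, the most abundant of them, was over 2-fold higher in replicate 1, at 3759 and 1663 TPM. The median gene lay 0.66 log2 units higher in replicate 2, over the 12260 genes whose mean TPM reached 1, which are called tested below. Log2 ratios of replicate 2 over replicate 1 are therefore given on the log2(TPM + 1) scale relative to that median gene, which understates the gap of low genes.

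Of the 10 genes, 6 were detected in both libraries (Amn, Tcn2, Cd320, Slc46a1, Slc19a1 and Slc19a2), beside 49.3% of 21474 protein-coding genes. Cubn, Gif and Slc19a3 passed 1 TPM in only 1 library each, and Lrp2 in neither. The 9 genes whose mean TPM reached 1 split by library. Cubn and Amn were over 2-fold higher in replicate 2 relative to the median gene, which holds for 5.03% of all genes tested. Gif, Slc46a1, Slc19a1, Slc19a3 and Cd320 were over 2-fold higher in replicate 1, beside 6.32% of all genes. Tcn2 and Slc19a2 lay within 2-fold. Because Cubn, Gif and Slc19a3 passed the mean level through 1 library only, a wide gap was built into their being tested. With TPM rescaled to leave out the pancreas and stomach genes, the same genes were past 2-fold in the same directions. That rescaling multiplies all genes of a library by a common factor, which the centring removes again. It could thus hardly change these calls, and no conclusion is drawn from it.

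**Figure D1:**
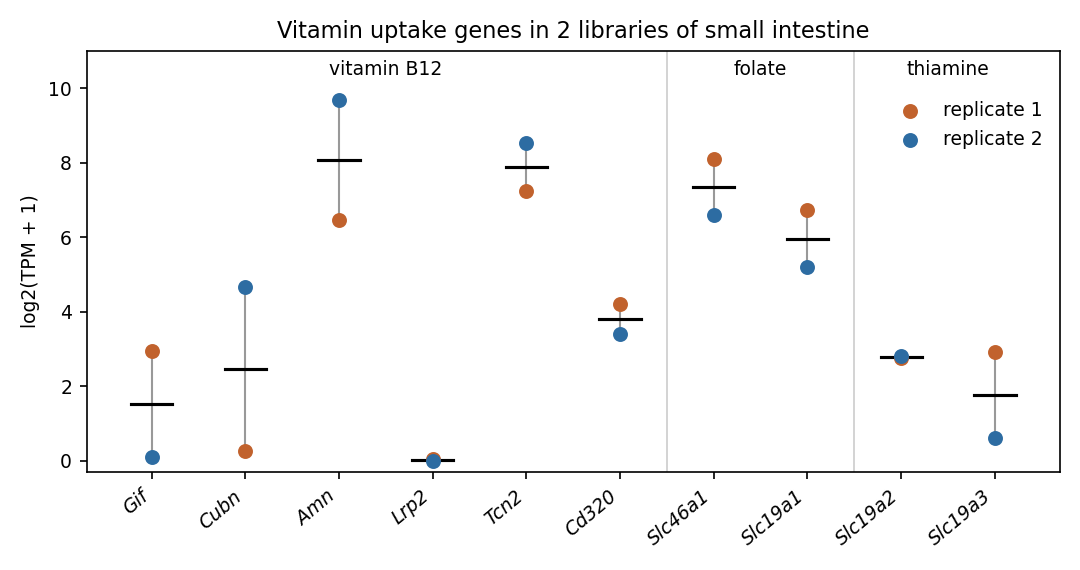
Level of each gene in replicate 1 (orange) and replicate 2 (blue), as log2(TPM + 1); the black bar is the mean of the 2 points. Cubn, Amn and Tcn2 have the blue point on top, while Gif, Cd320, Slc46a1, Slc19a1 and Slc19a3 have the orange point on top, and the points of Slc19a2 nearly coincide.

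By the authors' deposited credibility intervals (ranges of TPM given with each gene, whose level is not stated), 3 genes (Cubn, Amn and Tcn2) lay apart with replicate 2 above, beside 73.5% of all tested genes. Another 5 (Gif, Slc46a1, Slc19a1, Slc19a3 and Cd320) lay apart with replicate 1 above, beside 6.37%. The intervals of Lrp2 and Slc19a2 overlapped; with the intervals of FPKM in place of TPM, those of Slc19a2 lay apart with replicate 1 above, which makes 6. Intervals apart with replicate 2 above are thus usual for genes of these libraries, and those with replicate 1 above are not. The intervals were compared without centring, while the median gene lay 0.66 log2 units higher in replicate 2.

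In mean level the order was Amn, Tcn2, Slc46a1, Slc19a1, Cd320, Cubn, Slc19a2, Slc19a3, Gif and Lrp2. Of the 9 pairs of neighbours in this order, 8 differed by less than the larger SD of the pair. Slc19a1 against Cd320 was the pair that differed by more, by 56.5 TPM against an SD of 48.4 TPM. Amn led in replicate 2, where 98.6% of detected genes were lower, whereas Slc46a1 led in replicate 1, where 97.6% were lower.

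Gif (chromosome 19, 11747554 to 11763447, plus strand; ENSMUSG00000024682.3, coordinates here and below on GRCm38), the gene of intrinsic factor, is a stomach gene in rodents. It was listed at 6.74 TPM in replicate 1 and at 0.08 TPM in replicate 2 (3.41 ± 4.71 TPM, SD, n = 2). These values rest on 446 and 4 counts, the latter with a 95% exact Poisson interval of 1.09 to 10.2 counts, which covers counting error only. The log2 ratio was -3.51, and 1.13% of tested genes had a lower one. Stomach RNA moved with it. The 9 stomach genes (Tff1, Tff2, Gkn1, Gkn2, Gkn3, Muc5ac, Pgc, Atp4a and Atp4b) summed to 19747 and 51.4 TPM, and all 7 of them whose mean reached 1 TPM were over 2-fold higher in replicate 1. The proton pump genes of parietal cells were low in both, Atp4a at 0.95 and 0.3 TPM and Atp4b at 0.05 and 0.07 TPM. Of 5 genes of gastric chief cells, the cells that make intrinsic factor in mice, Pgc, which is also in the stomach list, stood at 355 and 10.04 TPM, Cpb1, which is also in the pancreas list, at 611 and 1.17 TPM, and Bhlha15 at 17.1 and 8.94 TPM. Pga5 was at 0.85 and 0 TPM and Chia1 at 0 and 0.07 TPM. The part of stomach RNA in the level of Gif was not tested. Nor was the part of chief cells in the levels of Pgc, Cpb1 and Bhlha15. The 16 pancreas genes took 27.4% of TPM in replicate 1 and 0.18% in replicate 2.

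Cubn (chromosome 2, 13276338 to 13491813, minus strand; ENSMUSG00000026726.10) encodes cubilin, the part of cubam that binds intrinsic factor. It stood at 0.2 TPM in replicate 1 (111 counts) and 24.3 TPM in replicate 2 (10450 counts), or 12.2 ± 17.03 TPM (SD, n = 2). Replicate 2 was thus 121-fold higher in TPM, and its log2 ratio of 3.73 was exceeded by 32 of the 12260 genes. Cubn went from below the detection threshold in replicate 1 to above 68.05% of detected genes in replicate 2.

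Amn (chromosome 12, 111271095 to 111276426, plus strand; ENSMUSG00000021278.6) encodes amnionless, which anchors cubilin in the membrane and brings it to the cell surface. It stood at 87.5 TPM in replicate 1 (6452 counts) and at 820 TPM in replicate 2 (47392 counts), or 454 ± 518 TPM (SD, n = 2). The gap was 9.37-fold in TPM and 2.55 on the centred log2 scale, which 88 genes exceeded. Both receptor genes were thus higher in replicate 2, but they were not held in 1 ratio. TPM of Amn per TPM of Cubn was 438 in replicate 1 and 33.8 in replicate 2. Amn was well detected in the library in which Cubn was near 0.

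Most epithelial genes moved with these genes as well, with a median log2 ratio of 1.35 over the 12, although Alpi went the other way (-1.84). Centred on the median of those 12 genes in place of all genes, Cubn still lay 2.39 log2 units higher in replicate 2 and Amn 1.20. Against villin (Vil1), a structural protein of the brush border, Amn held 0.551 TPM per TPM of Vil1 in replicate 1 and 1.11 in replicate 2, and Cubn held 0.00126 and 0.0329. The kidney genes Slc34a1, Slc22a6, Slc22a8, Slc5a2, Kap, Umod and Aqp2 were all under 1 TPM in both libraries, and 4 and 5 of the 8 genes of the kidney list were listed at 0. The remaining gene of that list, the lactate transporter Slc5a12, was at 0.22 and 21.8 TPM.

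Lrp2 (chromosome 2, 69424340 to 69586065, minus strand; ENSMUSG00000027070.10), the megalin gene, was near the limit of detection. It had 26 counts in replicate 1 (95% exact Poisson interval 16.98 to 38.1) and 1 count in replicate 2 (0.0253 to 5.57), listed at 0.03 and 0 TPM. Cubn, with 10450 counts in replicate 2, was thus present there with Amn and with almost no megalin RNA.

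Tcn2 (chromosome 11, 3917192 to 3932159, minus strand; ENSMUSG00000020432.8), the gene of the blood carrier transcobalamin, was abundant in both libraries. It stood at 150 TPM (12886 counts) in replicate 1 and 370 TPM (24929 counts) in replicate 2, or 260 ± 156 TPM (SD, n = 2). The gap of 2.47-fold in TPM was 0.63 relative to the median gene, within 2-fold, and 11.5% of tested genes had a higher ratio. Its direction depended on the scaling: without centring it was 1.30, and centred on the 12 epithelial genes it was -0.71.

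Cd320 (chromosome 17, 33843091 to 33849774, plus strand; ENSMUSG00000002308.11), the gene of the cellular receptor for transcobalamin, was lower than its ligand in both libraries, at 17.6 TPM (625 counts) and 9.68 TPM (363 counts), or 13.6 ± 5.59 TPM (SD, n = 2). Its log2 ratio was -1.46, over 2-fold, but -0.80 without centring and -0.82 when only protein-coding transcripts were summed (chosen after the values were seen), both within 2-fold. Tcn2 exceeded Cd320 by 8.54-fold in replicate 1 and by 38.2-fold in replicate 2 on the TPM scale, a mean log2 of 4.18 that was 5.14 on protein-coding transcripts alone. Endothelial and macrophage genes, which mark other cells of the gut wall, were nearer to the median gene. Of 8 endothelial genes (Pecam1, Cdh5, Kdr, Tek, Tie1, Emcn, Plvap and Egfl7), which summed to 225 and 409 TPM, none of the 7 tested was over 2-fold apart. Of the macrophage list of 8, summed to 176 and 232 TPM, Adgre1 was, with 3.28 and 1.96 TPM.

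Slc46a1 (chromosome 11, 78465697 to 78472059, plus strand; ENSMUSG00000020829.9) encodes the proton-coupled transporter by which dietary folate enters the enterocyte. It stood at 274 TPM in replicate 1 (24149 counts) and at 95.8 TPM in replicate 2 (6615 counts), or 185 ± 126 TPM (SD, n = 2). Replicate 1 was 2.86-fold higher in TPM, and the log2 ratio was -2.17, with 2.3% of tested genes lower. This is the opposite direction to that of the cubam genes.

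Slc19a1 (chromosome 10, 77032241 to 77061002, plus strand; ENSMUSG00000001436.11) encodes the reduced folate carrier, an anion exchanger. It stood at 104 TPM in replicate 1 (5735 counts) and at 35.9 TPM in replicate 2 (1573 counts), or 70.2 ± 48.4 TPM (SD, n = 2). Its log2 ratio, -2.18, nearly equalled that of Slc46a1. TPM of Slc46a1 per TPM of Slc19a1 was 2.62 in replicate 1 and 2.67 in replicate 2, so the folate carriers kept their proportion while both were lower in replicate 2. On protein-coding transcripts alone the mean log2 of that proportion was 1.66 in place of 1.40. Slc19a1 overlaps the collagen gene Col18a1 on the opposite strand, listed at 22.1 and 28.9 TPM; the libraries kept the strand, but whether the counting used it is not given in the sources used here. Against Vil1, Slc46a1 held 1.72 TPM per TPM in replicate 1 and 0.13 in replicate 2.

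RefSeq promoter windows of 300 bases, from 250 before to 50 after each start on GRCm38.p6, were at hand for 9 of the 10 genes, with a pair of starts each for Slc19a1 and Cd320; Tcn2 had no entry. The 4 windows printed here belong to the cubam genes and to the folate carriers, which lay on opposite sides of the median gene. They are written 5′ to 3′ on the strand of the gene. Capitals mark exact matches, on either strand, to the motifs searched: CAAAGTC for HNF4, GTTAAT for HNF1, TTTATG or its variant TTTACG for CDX, AGATAA or its variant TGATAA for GATA factors, TATAAA for the TATA box, CCAAT for the CCAAT box, and GGGCGG for the GC box.
Cubn, chr2:13491827-13492126, minus strand: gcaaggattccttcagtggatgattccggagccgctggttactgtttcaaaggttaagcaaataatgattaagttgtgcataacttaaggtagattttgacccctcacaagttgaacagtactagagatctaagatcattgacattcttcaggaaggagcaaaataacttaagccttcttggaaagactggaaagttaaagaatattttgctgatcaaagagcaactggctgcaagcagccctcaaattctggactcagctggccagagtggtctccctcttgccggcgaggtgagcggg
Amn, chr12:111270846-111271145, plus strand: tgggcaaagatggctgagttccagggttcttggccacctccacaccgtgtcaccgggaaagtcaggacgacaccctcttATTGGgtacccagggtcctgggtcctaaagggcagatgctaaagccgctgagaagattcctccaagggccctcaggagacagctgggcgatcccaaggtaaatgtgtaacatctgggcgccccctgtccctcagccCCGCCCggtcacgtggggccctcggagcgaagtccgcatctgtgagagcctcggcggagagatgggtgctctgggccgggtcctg
Slc46a1, chr11:78465451-78465750, plus strand: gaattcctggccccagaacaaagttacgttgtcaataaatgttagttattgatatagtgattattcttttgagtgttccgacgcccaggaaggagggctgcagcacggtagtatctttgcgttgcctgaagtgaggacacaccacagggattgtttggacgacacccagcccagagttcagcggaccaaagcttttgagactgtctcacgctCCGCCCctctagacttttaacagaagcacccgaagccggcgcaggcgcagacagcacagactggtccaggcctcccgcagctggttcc
Slc19a1, first start, chr10:77032489-77032788, plus strand: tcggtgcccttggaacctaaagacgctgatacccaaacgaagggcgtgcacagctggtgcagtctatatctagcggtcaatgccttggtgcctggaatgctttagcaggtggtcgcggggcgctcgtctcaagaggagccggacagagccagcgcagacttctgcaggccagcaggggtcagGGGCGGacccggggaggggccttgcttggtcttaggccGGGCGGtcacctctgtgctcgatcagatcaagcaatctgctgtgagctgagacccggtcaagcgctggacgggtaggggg

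The Cubn window held none of these letters, and 44.3% of its bases were G or C. The RefSeq start of Cubn lies at position -63 relative to the GENCODE gene start, so the window is upstream of the annotated gene. Amn, with 62.3% G and C, held CCAAT at -171 and GGGCGG at -35, both on the opposite strand, counted from the RefSeq start. Slc46a1 held 1 GGGCGG at -38 on the opposite strand, and the first start of Slc19a1 held 2 on its own strand, at -68 and -30. The second start of Slc19a1, not printed here, held none of the letters searched. The first and second starts lie 498 and 971 nt after the GENCODE gene start. The last bases of the first window are in no GENCODE transcript of the gene. Over all 32851 windows of the table, 35.7% hold GGGCGG and 37.4% hold CCAAT, and the median G and C content is 52.7%. The HNF4, HNF1, GATA and TATA letters matched in none of the 11 windows of these genes. They occur in 4.44%, 7.1%, 11.2% (AGATAA), 9.05% (TGATAA) and 13.6% of all windows. Of the CDX letters, TTTATG (11.9% of all windows) matched once, in Lrp2, and TTTACG (3.03%) in none. The cubam genes thus shared no motif match in these windows. A match or its absence describes letters only.

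Slc19a2 (chromosome 1, 164249046 to 164265385, plus strand; ENSMUSG00000040918.8), the THTR1 gene, was low and even. It stood at 5.78 TPM in replicate 1 (973 counts) and 6.05 TPM in replicate 2 (706 counts), or 5.92 ± 0.191 TPM (SD, n = 2), the smallest SD relative to the mean of the 10 genes (3.23%). Relative to the median gene its log2 ratio was -0.61, and the sign rests on the scaling, since it was 0.06 without centring. Centred on the 12 epithelial genes it was -1.95, past 2-fold.

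Slc19a3 (chromosome 1, 83012523 to 83038448, minus strand; ENSMUSG00000038496.12), the THTR2 gene, stood at 6.58 TPM in replicate 1 (731 counts) and 0.52 TPM in replicate 2 (46 counts), or 3.55 ± 4.29 TPM (SD, n = 2). The gap was 12.7-fold in TPM and -2.98 on the centred log2 scale, with 1.4% of tested genes lower. The thiamine transporters thus stood nearly level in replicate 1, at 0.878 TPM of Slc19a2 per TPM of Slc19a3, while in replicate 2 Slc19a2 was 11.6-fold higher.

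**Figure D2:**
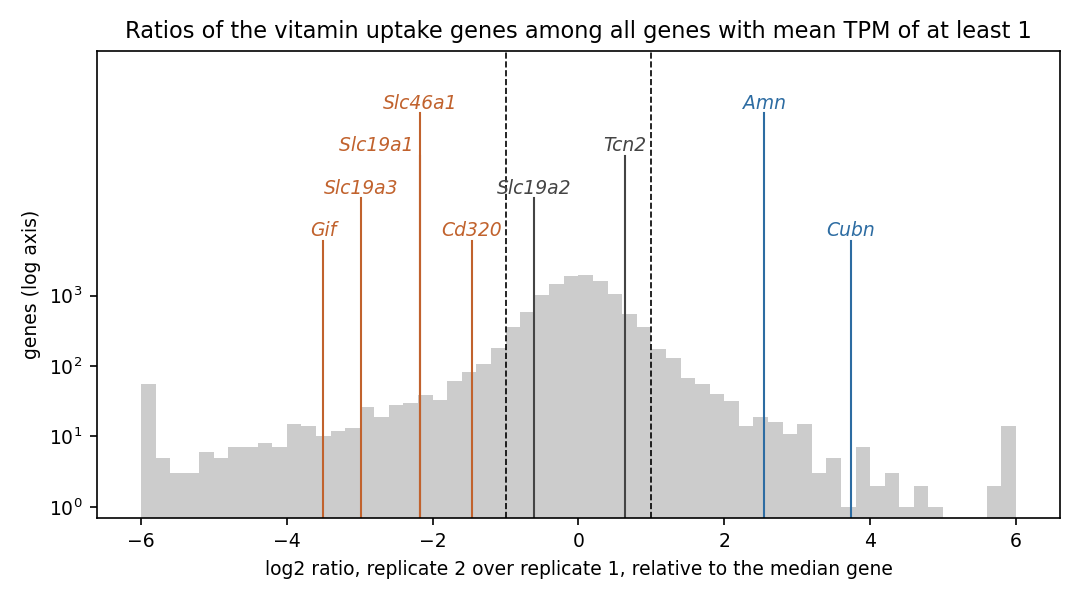
Number of genes (grey, log axis) by log2 ratio of replicate 2 over replicate 1 relative to the median gene, for the 12260 tested genes; ratios beyond 6 in size are drawn in the end bins, and dashed lines mark 2-fold. Coloured lines mark the 9 tested vitamin uptake genes, of which Cubn (3.73) and Amn (2.55) lie to the right and Gif (-3.51), Slc19a3 (-2.98), Slc19a1, Slc46a1 and Cd320 to the left of the dashed lines.

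The transcript tables hold 38 models of these genes. Amn and Gif have 1 model each, and in Slc46a1 the full-length protein-coding model took 99.2% and 99.3% of TPM. In Cubn the full-length model of 11262 nt took 100% and 98.6%, and all 111 counts of replicate 1 were assigned to it. The authors' posterior means give 76.9% and 98.3% for this model. In replicate 1 they give 21.5% to Cubn-202, a retained-intron model of 588 nt with 0 counts there.

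Tcn2 had 7 protein-coding models that share their 3′ end and differ at the 5′ end, with starts spread over 370 nt. Tcn2-201 took 59.6% of TPM in replicate 1 and 56.6% in replicate 2, Tcn2-203 took 27.4% and 30.1%, and Tcn2-207 stood at 13.1 and 38.3 TPM. The shares of Tcn2-201 and Tcn2-203 thus moved by less than 3 percentage points, although the level of the gene differed. In Slc19a3, Slc19a3-201 took 61.02% and 64.4%, but the shares of replicate 2 rest on 36 and 10 counts, and the authors' posterior means give 60.3% and 52.4% for this model, in the opposite direction. Both expressed models of Slc19a3 were lower in replicate 2, at 4.02 and 0.33 TPM for Slc19a3-201 and at 2.57 and 0.18 TPM for Slc19a3-203.

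The models of Slc19a1 and Cd320 were less clear. In Slc19a1 the model with the highest share, Slc19a1-207, is a partial one of 826 nt, at 42.7% and 44.7%, and the model Slc19a1-209 of 2309 nt took 25.4% and 20.9%. That longer model was also lower in replicate 2, at 26.5 and 7.53 TPM. Slc19a1-202, a retained-intron model, took 14.3% and 19.4%. In Cd320 a retained-intron model of 492 nt, Cd320-203, took 59.6% of TPM in replicate 1 and 35.4% in replicate 2, at 10.48 and 3.42 TPM. The protein-coding models of Cd320 together were at 7.11 and 6.26 TPM. The credibility intervals of the retained-intron model, 7.7 to 13.07 and 1.28 to 5.44 TPM, did not overlap. In expected counts it held a smaller part of the gene, 137 of 625 in replicate 1 and 37 of 363 in replicate 2, since TPM weighs short models more heavily. The counts of the protein-coding models were also lower in replicate 2, at 278 and 169 for Cd320-201 and at 211 and 157 for Cd320-202. Their credibility intervals overlapped between the libraries, unlike those of the retained-intron model. For Cd320-201 they were 2.077 to 3.495 and 1.501 to 2.942 TPM, and for Cd320-202 3.233 to 5.367 and 2.859 to 5.135 TPM. In Slc19a2 the main model Slc19a2-201 took 82.6% and 69.6%, and Slc19a2-204, of 894 nt, was listed at 0 and 0.72 TPM (0 and 19 counts).

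**Figure D3:**
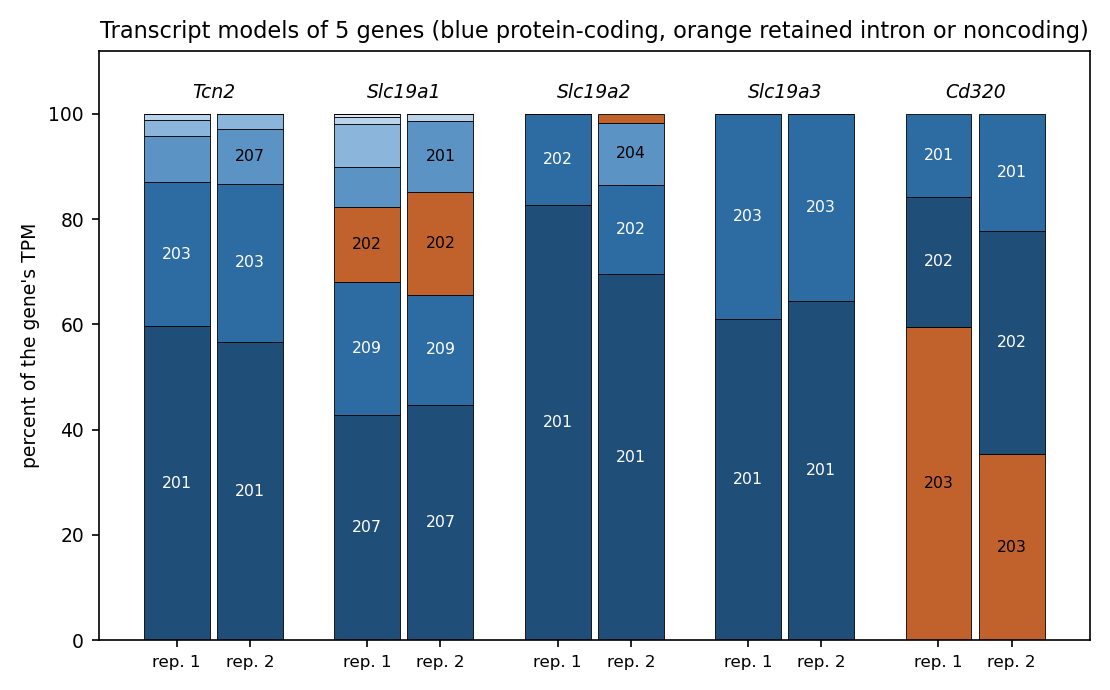
Percent of each gene's TPM taken by each transcript model in replicates 1 and 2, for 5 genes with several expressed models; numbers in the bars name the model, blue is protein-coding and orange is retained intron or noncoding. Tcn2-201 takes 59.6% and 56.6%, the bars of Slc19a3 in replicate 2 rest on 46 counts, and the orange model of Cd320 takes 59.6% in replicate 1 and 35.4% in replicate 2.

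Of all tested genes, 11.4% were over 2-fold apart in either direction. Of the lists of genes that handle these vitamins inside the cell, 1 of 10 tested cobalamin genes, 3 of 18 folate genes and 0 of 10 thiamine genes were. Of 12 genes of intracellular cobalamin handling, 10 were tested; 9 lay within 2-fold and their median log2 ratio was -0.31, where that of all genes tested is 0 by the centring. The most abundant were Abcc3, an exporter of organic anions, at 150 and 34.3 TPM, Mmadhc, a cobalamin chaperone, at 22.7 and 31.6 TPM, Abcd4, a lysosomal cobalamin exporter, at 4.47 and 15.7 TPM, and Mmab, which makes adenosylcobalamin, at 4.62 and 5.69 TPM. Abcc3 was the gene past 2-fold, with a ratio of -2.76. As an exporter of organic anions it is not particular to cobalamin, so its gap is not read as one of cobalamin handling. Methionine synthase, Mtr, which uses methylcobalamin, was at 0.45 and 0.75 TPM.

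Of 23 genes of folate metabolism, 18 were tested, with a median of -0.07. None was over 2-fold higher in replicate 2 and 3 were in replicate 1, beside 5.03% and 6.32% of all tested genes. Those 3 were Folr2, a folate receptor, at 3.17 and 0.38 TPM, Ggh, a hydrolase of folate polyglutamates, at 2.09 and 0.44 TPM, and Aldh1l2 at 1.47 and 0.82 TPM, all low genes named after their values were seen, which passed the mean level through replicate 1 only. The most abundant were Aldh1l1, formyltetrahydrofolate dehydrogenase, at 16.5 and 44.2 TPM, the exporter Abcc2 at 20.2 and 40.5 TPM, the serine hydroxymethyltransferase Shmt2 at 19.2 and 27.8 TPM, and Fpgs, which adds the glutamate tail, at 20.6 and 21.3 TPM. Folh1, which trims dietary folate in the human jejunum, was at 0.01 and 0 TPM, Ftcd at 0 in both, and the folate receptor Folr1 at 0.68 in both.

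Of 11 genes of thiamine metabolism, all 10 tested lay within 2-fold, with a median of 0.04. Transketolase, Tkt, which uses thiamine pyrophosphate, was at 127 and 287 TPM, Ogdh, a subunit of 2-oxoglutarate dehydrogenase, at 131 and 283 TPM, the thiamine pyrophosphate transporter Slc44a4 at 52 and 82.7 TPM, and Bckdha at 55.8 and 75.2 TPM. Slc35f3 was at 0.01 and 0.02 TPM.

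Of 13 genes for other water-soluble vitamins, 5 were over 2-fold higher in replicate 2, beside 5.03% of all tested genes, and none in replicate 1, with a median of 0.55. With a pseudocount of 0.1 or with TMM-scaled counts the 5 became 4. The vitamin C transporter Slc23a1 was at 1.14 and 56.6 TPM, a log2 ratio of 4.09. Vnn1, a pantetheinase that releases pantothenate, was at 3.02 and 46.5 TPM, the riboflavin transporter Slc52a3 at 21.5 and 225 TPM, and Slc5a6, the transporter of biotin and pantothenate, at 11.7 and 62.1 TPM. Riboflavin kinase, Rfk, at 248.7 and 807 TPM, lay just past 2-fold with a ratio of 1.03, and the riboflavin transporter Slc52a2, at 34.97 and 98.97 TPM, within it. Slc23a2, the other vitamin C transporter, was at 13.6 and 15.1 TPM with a ratio of -0.52, so the vitamin transporters of this list did not all lie on 1 side of the median gene.

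Of 15 genes of receptor endocytosis, which serve cubam and megalin among other receptors, 1 was over 2-fold apart, beside 11.4% of all tested genes. Their median was 0.09. Lamp1, a lysosomal membrane protein, was at 286 and 541 TPM, the clathrin adaptor subunit Ap2m1 at 144 and 414 TPM, and the endocytic receptor Lrp1 at 65.5 and 163 TPM. Clusterin, Clu, a secreted ligand of megalin, was the exception, at 382 and 73.3 TPM with a ratio of -3.03.

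**Figure D4:**
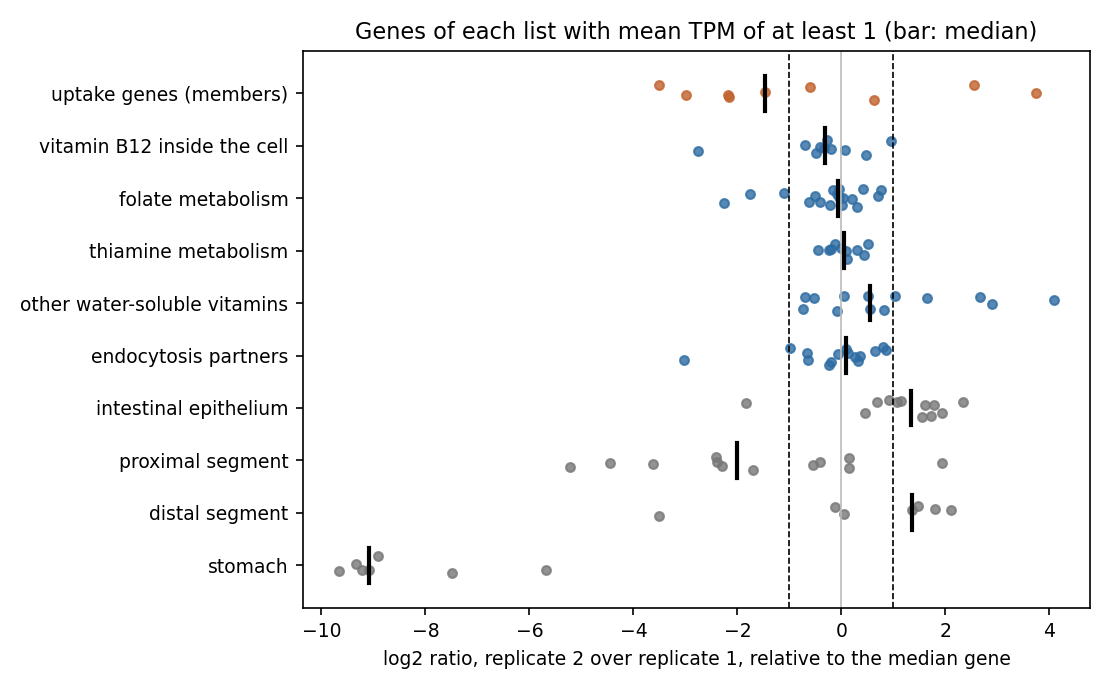
Log2 ratio of replicate 2 over replicate 1 relative to the median gene for each tested gene, by list; the black bar is the list's median and dashed lines mark 2-fold. The uptake genes (orange) spread from -3.51 to 3.73, the metabolic lists lie mostly between the dashed lines, and the proximal and distal segment lists have medians on opposite sides of 0 with members on both.

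Genes that mark segments of the intestine also differed between the libraries, in mixed directions. Of the 13 genes of the proximal list, which mark duodenum and jejunum, 7 were over 2-fold higher in replicate 1 (Pdx1, Slc40a1, Cybrd1, Slc11a2, Onecut2, Ghrl and Ada) and 1 in replicate 2 (Lct), with a median of -2.003 over 12 tested genes and sums of 1444 and 1446 TPM. Of the 9 genes of the distal list, from which the cubam genes and Tcn2 were left out, 4 were over 2-fold higher in replicate 2 (Fabp6, Slc51a, Pyy and Nts) and 1 in replicate 1 (Ces1f), with a median of 1.36 over 7 tested genes and sums of 222 and 818 TPM. Defining ileal genes were low in both: Slc10a2 at 0.13 and 1.85 TPM, Fgf15 at 0 and 1.52 TPM, and Fabp6 at 0.08 and 4.95 TPM. Rbp2, Gip, Fabp1 and Gata4 of the proximal list lay within 2-fold, as did Slc51b and Gpbar1 of the distal list. Fabp6 and Nts passed the mean level through replicate 2 only, and Pdx1 and Onecut2 through replicate 1 only. A wide gap was thus built into the testing of these genes. The median of the 12 epithelial genes (1.35) was close to the distal median and on the opposite side of the median gene from the proximal one. Lct is in both the epithelial and the proximal list. The part of segment make-up in these gaps was not tested, and in 2 libraries it cannot be told apart from the pancreas and stomach RNA of replicate 1. Smooth muscle genes summed to 1304 and 1158 TPM with a median of -0.88, plasma cell genes to 8953 and 22080 TPM with a median of 0.14, and liver genes to 9.09 and 6.02 TPM.

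With 2 libraries, likeness between genes reduces to a pair of values. The 3 protein-coding genes nearest to Cubn by distance in log2(TPM + 1) over the 2 libraries were Slc5a12 (distance 0.15), Hist1h2ad (0.267) and Defa5 (0.313). Those nearest to Amn were Aoc1 (0.385), a diamine oxidase, Dnpep (0.557) and H2-Aa (0.603).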

How the data were processed

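Poly(A)-selected RNA above 200 nt was sequenced in stranded paired reads of 76 nt, per the labels. The deposited tables, 1 for genes and 1 for transcripts per library, were made from transcriptome alignments to mm10 with annotation release M4, per the text deposited beside them. Neither aligner nor counting program is given in the sources used here. The authors' deposited values are expected counts, TPM (scaled over all features, spike-ins included) and FPKM, and, for transcripts, the percent of the gene's TPM. The deposited credibility bounds of TPM and FPKM were read as scores, since their level is not stated. Short partial or intron-retaining models weigh heavily in TPM, which divides by effective length.

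GENCODE M21 on GRCm38 supplied symbols and coordinates; it matched 42462 of the 43346 genes (98.0%), and promoters from RefSeq. Ratios were log2((TPM + 1) / (TPM + 1)), replicate 2 over replicate 1, minus the median of genes with mean TPM of at least 1; the threshold was 2-fold. With 1 group of 2 libraries no test was made, and edgeR 4.0.16 and DESeq2 1.42.0 (R 4.3.3) were used only to scale counts in alternatives. Other steps used Python 3.11.15, numpy 2.4.6, pandas 2.3.3, scipy 1.17.1 and matplotlib 3.10.9. The ratio step was tested on simulated data. The limit set by a count of 0 (3 counts of a library's total) is 6.60e-06% for replicate 1 and 6.55e-06% for replicate 2. The labels name separate tissue samples but do not say that they came from different animals. The SD thus measures the spread between these samples, their unlike make-up included, and cannot be read as a spread between animals.

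Genes named are the 10 uptake genes; of each pathway list the 4 with the highest mean TPM, those past 2-fold with mean TPM of at least 10, and any set of up to 5 that stayed under 1 TPM in each library; marker genes; and the 3 genes most like Cubn and Amn. The members and lists were chosen with earlier results of these data known. Alternatives were other pseudocounts, units, scalings, TPM minimums and each replicate left out. RefSeq proteins were not used here.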

Additional observations from a re-analysis of the deposited data

How the results depend on the processing

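Over 13 alternatives of scaling, unit, pseudocount and transcript choice, Cubn and Amn were the genes over 2-fold higher in replicate 2 in 12, joined by Tcn2 without centring. The same 5 genes were over 2-fold higher in replicate 1 in 10; Cd320 dropped out without centring and on protein-coding transcripts, and Slc19a2 joined them when centred on the epithelial genes. The ratios ranged from 2.07 to 6.10 for Cubn, 1.20 to 3.21 for Amn, -6.89 to -1.64 for Gif, -3.51 to -1.50 for Slc46a1, -3.52 to -1.51 for Slc19a1 and -4.41 to -1.50 for Slc19a3, so their directions held in every alternative run. The centring moves all genes together: without it the median gene lies at 0.66, on spike-in RNA at 0.36 and on the epithelial genes at -1.35. The epithelial and protein-coding alternatives were chosen after the data were seen.

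In the pathway lists, counts past 2-fold moved with the pseudocount. With a pseudocount of 0.1, 1 cobalamin gene in place of 0 was higher in replicate 2, and 2 endocytosis genes in place of 1 were higher in replicate 1, as also with TMM-scaled counts (2). With a pseudocount of 5, 1 folate gene in place of 3 was higher in replicate 1, and 1 endocytosis gene in place of 0 was higher in replicate 2. Over genes with mean TPM of at least 5, 0 folate genes were higher in replicate 1. With expected counts in place of TPM, which leaves gene length in, the mean log2 proportion of Amn to Cubn was 4.02 in place of 6.93, that of Slc46a1 to Slc19a1 2.07 in place of 1.40, that of Amn to Vil1 -1.25 in place of -0.35, that of Tcn2 to Cd320 5.23 in place of 4.18, and that of Cubn to Vil1 -5.27 in place of -7.28; on protein-coding transcripts that of Slc46a1 to Slc19a1 was 1.66. The proportion of Lrp2 to Cubn was not computed, since Lrp2 is listed at 0 TPM in replicate 2. Without either replicate, the genes detected numbered 7 to 8 in place of 6. No paired analysis was possible because the labels give 1 group, and ratios between the replicates need both. Counts were fewest for Lrp2 (26 and 1) and for Gif (4) and Slc19a3 (46) in replicate 2; that of Lrp2 in replicate 2 lies under the limit of 3 counts.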
